A study of Mus musculus with 4 samples.

Results

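CD8 T cells were taken from dissociated mouse pancreatic tumours as single-cell RNA profiles, and 50 of 14298 cell barcodes that passed the quality limits met the rule. The quality limits were a minimum of 500 UMIs (unique molecular identifiers, each counting 1 captured RNA molecule) and of 250 genes, and a mitochondrial share of no more than 20%. The cells were chosen by UMIs of marker genes. A barcode was kept as a CD8 T cell when at least 2 of the T cell genes Cd3e, Cd3d, Cd3g, Trac and Trbc2 and at least 1 UMI of Cd8a or Cd8b1 were found, with Cd4 and Foxp3 at 0. Barcodes with more than 1 UMI of the macrophage genes C1qa, C1qb and C1qc, or more than 1 UMI of Krt8, Krt18 and Krt19, were left out. TAK-981 tumours gave 12 and 23 CD8 T cells in libraries 1 and 2, and vehicle tumours gave 11 and 4.

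All tumours grew from KPC46, a single pancreatic cancer organoid line, in B6/129 F1J mice. TAK-981 (Subasumstat) is an inhibitor of the SUMO-activating enzyme, and the 2 control mice received Cremophor, the vehicle. Each of the 4 libraries came from 1 tumour-bearing mouse, so n = 2 per group, and doses and treatment times were not given in the sources used here. All libraries were 10x 3′ v3.1 libraries of whole dissociated tumours with no sort for T cells.

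CD8 T cells recognise peptides on MHC class I and kill the presenting cell with perforin and granzymes. Naive and central memory cells carry the homing receptor Ccr7 and the transcription factors Tcf7 and Lef1. Antigen-driven cells replace these with effector genes and, under lasting stimulation in tumours, with inhibitory receptors such as Pdcd1, the gene of PD-1. SUMO conjugation attaches a small protein to nuclear targets, and its inhibition is known to raise type I interferon production in myeloid cells.

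The libraries differed in depth, and this touches every count of detected genes. The CD8 T cells held 51139 and 97582 UMIs in all in TAK-981 libraries 1 and 2, against 14886 and 6349 in vehicle libraries 1 and 2. Median UMIs per CD8 T cell were 4149 and 3459 with TAK-981, against 1241 and 1568.5 with vehicle. Gm42418, a transcript that overlaps ribosomal RNA sequence, took 2.05% and 1.15% of CD8 T cell UMIs with TAK-981, against 16.3% and 2.85% with vehicle, so that vehicle library 1 stood apart. Mitochondrial UMIs were 6.54% and 4.74% with TAK-981, against 3.64% and 2.00% with vehicle. Scrublet-ranked doublet removal took 0 of the 50 cells, and 1 of the 50 had a barcode sequence that also occurred in another library. The 2 libraries of a group were not copies of each other: chi-squared of their CD8 counts, divided by its degrees of freedom, was 3.29 for TAK-981 and 8.53 for vehicle.

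T cell genes that the rule did not use were present in the 50 cells. Skap1, an adaptor of the T cell receptor, was detected in 58.0% of them, Trbc1 in 56.0%, the kinase Lck in 52.0%, the adaptor Lat in 25 of 50 cells and the kinase Zap70 in 20 of 50. Fewer cells held the T cell genes Cd6 (13 of 50), Ubash3a (12), Cd5 (5) and Cd7 (4). In 3268 macrophages of the same libraries, which should lack these genes, each was found in at most 0.786% of cells of any library, although macrophages held medians of 7221 and 9089.5 UMIs with TAK-981 and 3744 and 3432.5 with vehicle. The natural killer (NK) genes Ncr1 and Klrb1c, the B cell genes Cd79a and Ms4a1, the macrophage genes Csf1r and Adgre1 and the fibroblast gene Col1a1 had 0 UMIs in all 50 cells. Other genes of these cell types were found in some of the 50. The NK gene Klre1 was found in 4 cells, and the B cell genes Ighm and Cd79b in 4 and 1. The macrophage genes Lyz2 and Ctss were found in 10 and 13 cells, and the fibroblast genes Col3a1 and Col1a2 in 2 and 1. Gzmk, a granzyme of memory-type CD8 T cells and the marker outside the rule, was found in only 6 of the 50 cells. Its UMIs numbered 5 and 6 with TAK-981 and 0 and 1 with vehicle. In 66 CD4 T cells without Foxp3 of the same libraries, defined below, Gzmk was found in 16. Skap1 was found there in 31, Trbc1 in 20, Lck in 38, Lat in 37 and Zap70 in 20. These genes thus mark T cells and not CD8 T cells alone. The label CD8 T cells therefore rested on the T cell receptor complex and the co-receptor, with little Gzmk.

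RNA of other cell types was found in most CD8 T cells with TAK-981. Macrophage or monocyte genes had a UMI in 10 of 12 and 14 of 23 cells with TAK-981, against 1 of 11 and 1 of 4 with vehicle, and acinar genes in 9 and 17, against 2 and 0. The 12 macrophage or monocyte genes summed to 38 and 22 UMIs with TAK-981, against 1 and 2 with vehicle, and 14 acinar genes summed to 46 and 33, against 8 and 0. The 8 neutrophil genes summed to 6 and 0 UMIs with TAK-981, against 1 and 34 with vehicle, and 1 cell of vehicle library 2 held 33 of the 34. The 11 NK genes summed to 79 and 86 UMIs with TAK-981, against 0 and 2 with vehicle, almost all of them Xcl1 and Gzma. On the counts-per-million scale (CPM) the acinar sums were 900 and 338 with TAK-981 and 537 and 0 with vehicle. The macrophage sums were 743 and 225 CPM with TAK-981 and 67.2 and 315 with vehicle. The part of this RNA in the results below was not tested.

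Values at the limits of the rule were as follows. Of the 50 cells, 3 with TAK-981 (1 and 2) and 3 with vehicle (2 and 1) held exactly 1 UMI of Cd8a and Cd8b1 together. Exactly 2 of the 5 T cell genes were found in 0 and 1 cells with TAK-981, against 5 and 1 with vehicle. Just outside the rule, 0 and 0 barcodes with TAK-981 and 5 and 0 with vehicle had a CD8 UMI but only 1 T cell gene. The C1q limit kept out 3 and 1 barcodes with TAK-981 and 0 and 0 with vehicle, and the keratin limit 3 and 6 against 0 and 0.

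Cd8a and Cd8b1, neighbours on the plus strand of chromosome 6 (GRCm38, Cd8a at 71373427 to 71379173 and Cd8b1 at 71322788 to 71337494), encode the α and β chains of the co-receptor. Cd8a had 71 and 78 UMIs with TAK-981, against 5 and 3 with vehicle, and Cd8b1 had 33 and 58, against 23 and 7. Cd8a thus made 68.3% and 57.4% of the summed CD8 UMIs with TAK-981 and 17.9% and 30.0% with vehicle. Both TAK-981 libraries lay above both vehicle libraries in this share. Since these genes chose the cells, no test of this share was made. Both genes stayed in the gene-by-gene test below, where they are no result.

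CD8 T cells made a larger share of all passing barcodes in both TAK-981 tumours than in either vehicle tumour. The share was 0.532% (95% exact Clopper-Pearson interval 0.275 to 0.928) and 0.721% (0.457 to 1.08) with TAK-981, against 0.240% (0.120 to 0.430) and 0.0935% (0.0255 to 0.239) with vehicle. These intervals, like all intervals here, cover counting error only. The means were 0.626% ± 0.133 with TAK-981 and 0.167% ± 0.104 with vehicle (SD, n = 2 each), a ratio of 3.75. A 2-sided exact permutation test over the libraries gave p = 0.3333, the smallest value that 2 against 2 allows. With every barcode thinned to 500 UMIs before the rule, the mean shares were 0.198% with TAK-981 and 0.0679% with vehicle, a ratio of 2.92.

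Among T cells the difference was smaller at equal depth. Of all barcodes that met the T cell, C1q and keratin limits, 22.2% (12 of 54) and 19.7% (23 of 117) were CD8 T cells with TAK-981, against 12.8% (11 of 86) and 9.30% (4 of 43) with vehicle. The means were 20.9% ± 1.81 with TAK-981 and 11.05% ± 2.47 with vehicle, a difference of 9.89 percentage points (SD, n = 2 each, exact permutation p = 0.3333). With all barcodes thinned to 500 UMIs the means were 10.6% with TAK-981 and 9.97% with vehicle, the libraries of the groups overlapped, and the difference was 0.678 percentage points (exact permutation p = 0.667). At 1000 UMIs it was 2.37 percentage points. A cell counts as CD8 only when a CD8 UMI is caught, and T cells held medians of 3346 and 2438 UMIs with TAK-981, against 1424 and 1181 with vehicle.

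**Figure D1:**
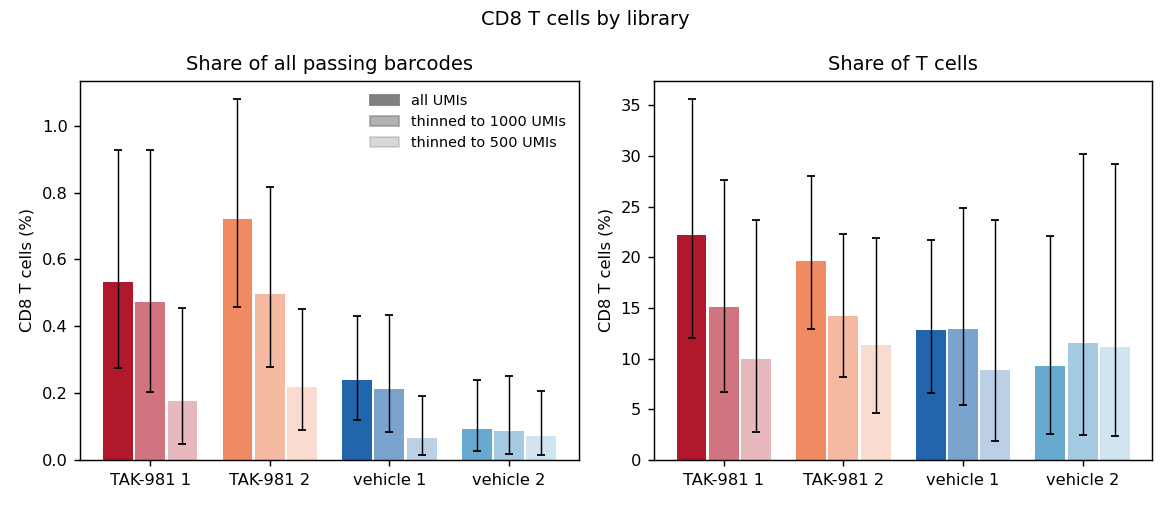
CD8 T cells as a percentage of passing barcodes (left) and of T cells (right) in each library, before thinning and after thinning every barcode to 1000 or 500 UMIs; lines are 95% exact binomial intervals. At all UMIs both TAK-981 libraries exceed both vehicle libraries in both panels, and at 500 UMIs the shares of T cells overlap, with means of 10.6% for TAK-981 and 9.97% for vehicle.

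The 50 cells fell along a range between a naive or memory profile and an effector profile, and the libraries took different stretches of it. Cells with a UMI of Lef1 or Tcf7 numbered 1 of 12 and 13 of 23 with TAK-981, against 7 of 11 and 1 of 4 with vehicle. Cells with a UMI of an inhibitory receptor (Pdcd1, Lag3, Havcr2 or Tigit) numbered 10 and 10 with TAK-981, against 3 and 2 with vehicle. TAK-981 library 2 and vehicle library 1 held the naive or memory cells, and TAK-981 library 1 and vehicle library 2 held few, so the groups overlapped. Of the 22 cells with a naive or memory gene, 3 also had an inhibitory receptor (0 and 1 with TAK-981, 2 and 0 with vehicle). More of them also had an effector gene UMI (Nkg7, Ccl5, Gzmb or Gzmk), 1 and 8 with TAK-981 and 4 and 1 with vehicle. The naive or memory and effector genes were thus not exclusive. At 500 UMIs per cell this overlap was 0 and 2 with TAK-981 and 1 and 0 with vehicle. With each cell thinned to 500 UMIs, naive or memory cells numbered 0 and 5 with TAK-981 and 4 and 0 with vehicle, and cells with an inhibitory receptor 1 and 4 against 0 and 1. These gene sets were chosen after their values were seen, and no test was made.

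The same split appeared in UMIs of longer lists. The 12 naive and memory genes had a median of 0.942 UMIs per 1000 UMIs of the cell in TAK-981 library 1 (lowest 0.274, highest 4.797) and 3.46 in TAK-981 library 2 (0.533 to 10.99). With vehicle the medians were 5.74 in library 1 (0.479 to 15.3) and 1.32 in library 2 (0.386 to 1.69). The 14 cytotoxic effector genes had medians of 6.87 and 2.13 per 1000 with TAK-981, against 1.07 and 3.85 with vehicle. Within each group the library lower in naive and memory genes was the higher in effector genes. In TAK-981 library 2, cells with a naive or memory gene and no inhibitory receptor held a median of 2491.5 UMIs, and cells with the reverse held 5623.

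**Figure D2:**
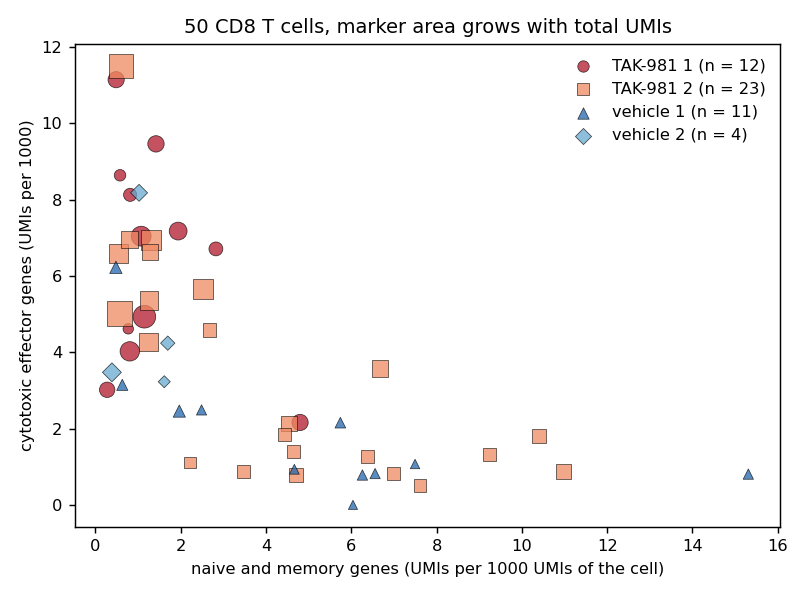
Each point is 1 of the 50 CD8 T cells; the x axis is UMIs of 12 naive and memory genes and the y axis UMIs of 14 cytotoxic effector genes, both per 1000 UMIs of the cell, and marker area grows with the total UMIs. Cells of TAK-981 library 1 lie mostly at the effector end (medians 0.942 and 6.87), and cells of vehicle library 1 mostly at the naive or memory end (medians 5.74 and 1.07).

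Naive and memory genes were detected singly as follows. Tcf7, the transcription factor TCF-1 of naive and stem-like T cells, had 5 and 16 UMIs with TAK-981, against 10 and 0 with vehicle. Ccr7, the chemokine receptor for entry into lymph nodes, had 11 and 15, against 5 and 0. S1pr1, the receptor through which T cells leave tissues, had 0 and 11, against 8 and 0. In CPM the TAK-981 and vehicle libraries overlapped for each of these, and vehicle library 2 held none of them. Il7r, the receptor of the survival cytokine IL-7, had 6 and 67 UMIs in 2 and 16 cells with TAK-981, against 9 and 1 UMIs in 5 and 1 cells with vehicle.

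Of the effector genes, Nkg7 was found in 38 of the 50 cells and Ccl5 in 19. Nkg7, a granule membrane protein, was found in 12 of 12 and 17 of 23 cells with TAK-981, against 5 of 11 and 4 of 4 with vehicle; in macrophages it was found in 0.459% and 0.314%, against 0.0979% and 0.405%. Ccl5, a chemokine of memory and effector T cells, had 105 and 33 UMIs with TAK-981, against 21 and 38 with vehicle. Ccl5 stood at 2053 and 338 CPM with TAK-981, against 1411 and 5985 with vehicle, with the highest value in vehicle library 2. Gzmb, the granzyme that activates caspases, had 9 and 13 UMIs with TAK-981, against 2 and 2 with vehicle. Prf1, perforin, had 8 and 12, against 1 and 0.

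Cytokine RNA was rarer. Ifng, interferon-γ, had 9 and 30 UMIs in 4 and 4 cells with TAK-981, against 1 and 0 UMIs in 1 and 0 cells with vehicle, and 1 cell of TAK-981 library 2 held 21 of the 30. Xcl1, a chemokine that attracts cross-presenting dendritic cells, had 73 and 14 UMIs with TAK-981, in 3 and 3 cells, against 0 and 0 with vehicle. A single cell of TAK-981 library 1 held 67 of the 73, and without it the TAK-981 level of Xcl1 did not exceed a floor of 3 UMIs over the vehicle libraries together. Gzma, a granzyme, had 0 and 68 UMIs with TAK-981, against 0 and 0 with vehicle, and 1 cell held 63 of the 68. Gzma and Xcl1 were thus signals of a few cells. In that Gzma-rich cell Trdc, a constant gene of the γδ T cell receptor, had 3 UMIs, and no other of the 50 cells had one. Genes of the γ chain were found in more cells, Tcrg-C2 in 13 of 50, Trgv2 in 6 and Tcrg-C4 in 2. Tcrg-C2 was also found in 9 of 66 CD4 T cells without Foxp3.

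Inhibitory receptors and activation genes were found mainly, at full depth, in the deeper TAK-981 libraries. Pdcd1 was detected in 8 of 12 and 10 of 23 cells with TAK-981, against 2 of 11 and 2 of 4 with vehicle. Its levels were 489 and 379 CPM with TAK-981 and 134 and 630 with vehicle, so the groups overlapped. Lag3, another inhibitory receptor, had 6 and 13 UMIs with TAK-981, against 0 and 0 with vehicle, and Havcr2, which encodes TIM-3, had 2 and 3, against 1 and 0. Tox, a transcription factor of exhausted T cells, had 9 and 12 UMIs, against 3 and 1, with overlapping levels in CPM. For Lag3 the TAK-981 level did not exceed the floor of 3 UMIs over both vehicle libraries.

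Cycling cells were present in both groups. Mki67 or Top2a, genes of dividing cells, were found in 4 and 6 cells with TAK-981, against 0 and 1 with vehicle. All but 1 of these 10 TAK-981 cells also had an inhibitory receptor UMI (4 and 5), and the vehicle cell had none. With each cell thinned to 500 UMIs, cycling cells numbered 2 and 2 with TAK-981 and 0 and 1 with vehicle, and 0 of them had an inhibitory receptor UMI. Top2a stood at 156 and 359 CPM with TAK-981, against 0 and 788 with vehicle, so the groups overlapped.

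**Figure D3:**
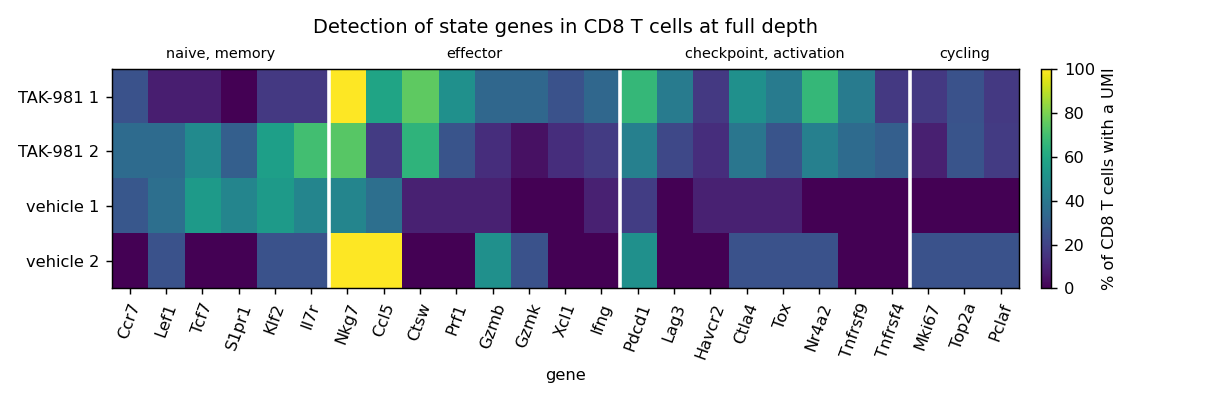
Percentage of CD8 T cells with at least 1 UMI of each gene, by library, at full depth, in the order naive and memory, effector, checkpoint and activation, and cycling genes. Lef1 and Tcf7 are found most often in TAK-981 library 2 and vehicle library 1, while Ccr7 is found in TAK-981 library 1 as well. Tnfrsf9 and Tnfrsf4 are found in the TAK-981 libraries alone. Depth differs between the groups (medians of 4149 and 3459 UMIs with TAK-981, 1241 and 1568.5 with vehicle).

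Detection shares moved with depth. Among 259 genes of the lineage and function lists, the share of cells with a UMI did not overlap between TAK-981 and vehicle libraries for 129 at full depth (49.8%), 126 higher and 3 lower with TAK-981. With each cell thinned to 500 UMIs the count was 48 (18.5%), of which 40 were higher and 8 lower. The 40 included Psmb8, Ly6a, Tnfrsf9, Ctsw, Stat3 and Xcl1. The 8 lower were Btg2, Cd28, Ifi27l2a, Il2rg, Jak1, Psme2, Sp100 and Tap2, so class I processing and interferon genes were found on both sides. Thinned shares of 2 against 2 libraries cannot reach an exact permutation p under 0.3333.

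TAK-981 against vehicle was then tested gene by gene on the UMIs summed over the CD8 T cells of each library. No gene passed. The edgeR quasi-likelihood test called 0 of 1057 genes at an adjusted p (Benjamini-Hochberg) of 0.05 (0.0%), while 102 had an unadjusted p under 0.05 (9.65%), 51 in each direction (4.82% each), and DESeq2 called 8, 1 higher (Plac8) and 7 lower. Without TAK-981 library 1 edgeR called 6 genes and without TAK-981 library 2 it called 5, with the lone TAK-981 library assumed to vary like the vehicle libraries. For 478 genes (45.2%) both TAK-981 libraries lay on the same side of both vehicle libraries. The median log2 fold change over all genes tested was 0.26, so changes are read against that value. P-values here rest on the spread between the library sums of these 4 mice. That spread also holds the sampling of few cells, 12 and 23 with TAK-981 and 11 and 4 with vehicle.

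Of genes higher with TAK-981, the 5 of smallest unadjusted p whose libraries did not overlap were Plac8, Atp5d, Tnfrsf9, Ly6a and Psmb8, and none passed the adjustment. Plac8 (chromosome 5, GRCm38, 100553725 to 100572245), a cysteine-rich protein of lymphoid and myeloid cells, had 26 and 129 UMIs with TAK-981, against 0 and 0 with vehicle. Both TAK-981 libraries exceeded both vehicle libraries, and against the floor of 3 UMIs Plac8 was at least 7.38-fold higher with TAK-981 (edgeR adjusted p = 0.416). TAK-981 library 1 alone gave at least 3.60-fold and TAK-981 library 2 alone at least 9.36-fold. With DESeq2 the adjusted p was 0.0449. Without TAK-981 library 1 the edgeR adjusted p was 3.06e-05, but there the spread came from the vehicle libraries, both at 0 UMIs, so that this value is no measure of the spread of Plac8 with TAK-981.

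Tnfrsf9 (chromosome 4, 150914562 to 150946102), which encodes the costimulatory receptor 4-1BB of recently activated T cells, had 23 and 33 UMIs in 5 and 8 cells with TAK-981, against 0 and 0 with vehicle. It was at least 2.67-fold higher against the same floor (edgeR adjusted p = 0.416). Ly6a (chromosome 15, 74994877 to 74998031), which encodes Sca-1 and responds to interferon, had 22 and 31 UMIs with TAK-981, against 0 and 0 with vehicle, or at least 2.52-fold more (edgeR adjusted p = 0.416). In CD4 T cells without Foxp3, Tnfrsf9 had 18 and 41 UMIs with TAK-981, against 6 and 5 with vehicle, so its RNA was caught there in the vehicle libraries.

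Psmb8, a catalytic subunit of the immunoproteasome that makes peptides for MHC class I, had 72 and 80 UMIs with TAK-981, against 3 and 2 with vehicle. It was detected in 12 of 12 and 22 of 23 cells with TAK-981, against 2 of 11 and 2 of 4 with vehicle. The log2 fold change was 2.02 ± 0.60 (SE, edgeR adjusted p = 0.416). Atp5d, a subunit of the mitochondrial ATP synthase, had 29 and 53 UMIs, against 1 and 0, a ratio of 11.7 with a 95% exact interval of 2.04 to 468. Both were higher in each TAK-981 library than in either vehicle library.

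Of genes lower with TAK-981, the 5 chosen in the same way were AY036118, Hcst, Ndufb1-ps, Snrpg and Lars2, and none passed. Hcst, which encodes the adaptor DAP10 of the killer receptor NKG2D, had 4 and 11 UMIs with TAK-981, against 9 and 6 with vehicle, or 78.2 and 113 CPM against 605 and 945. Its log2 fold change was -2.97 ± 0.60 (SE, edgeR adjusted p = 0.307). AY036118, which lies in the ribosomal RNA region with Gm42418, had -3.46 ± 0.64 (edgeR adjusted p = 0.297), and Lars2, a mitochondrial leucyl-tRNA synthetase, had -3.27 ± 0.84 (edgeR adjusted p = 0.416). Lars2 stood at 352 and 307 CPM with TAK-981, against 4299 and 473 with vehicle, so the high value was that of vehicle library 1, and without that library its log2 fold change was -0.13.

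Short transcripts gathered among the lower genes. Of the 51 genes lower at an unadjusted p under 0.05, 14 (27.5%) had a longest transcript under 800 nt and 20 encoded ribosomal proteins, against 1 (1.96%) and 2 of the 51 higher genes. Over all 1057 genes tested, 68 (6.43%) were that short and 79 encoded ribosomal proteins. The fixed list of 28 ribosomal protein genes had 14 higher and 14 lower, with a median of 0.08. Hcst, at 442 nt, was one of the short lower genes. The part of transcript length in these differences was not tested further than by leaving short transcripts out, after which edgeR called 5 genes, 1 higher and 4 lower.

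Genes of MHC class I presentation lay mostly above 0. Of 17 such genes 13 passed the low-count filter, and 12 were higher and 1 lower with TAK-981, with 0 passing at an adjusted p of 0.05 and a median log2 fold change of 1.15, beside 0.26 for the 1050 tested genes that the rule did not use (641 higher and 409 lower). H2-Q7, a non-classical class I gene, had 95 and 137 UMIs with TAK-981, against 9 and 4 with vehicle, a log2 fold change of 1.23 ± 0.49 (SE, edgeR unadjusted p = 0.0317, adjusted p = 0.483). H2-D1, a classical class I heavy chain, had 1.23 ± 0.58, and B2m, the shared light chain, had 0.37 ± 0.48. Class I genes share sequence, so reads of H2-Q7, H2-D1 and their relatives can be split uncertainly. The macrophage and acinar sums given above were higher in UMIs with TAK-981, whose libraries were deeper, but in CPM they overlapped between the groups. Of the mitochondrially encoded genes tested, 9 of 10 were higher (median 0.72), and of the heat shock genes 6 of 6 (median 1.29), with 0 passing in either list. Their part in the class I values was not tested.

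Checkpoint genes gave a similar count. Of 15 genes 6 were tested, 5 higher and 1 lower, with 0 passing and a median of 1.07. Nr4a2, a nuclear receptor induced by T cell receptor signals, had 32 and 32 UMIs in 8 and 10 cells with TAK-981, against 0 and 1 UMIs in 0 and 1 cells with vehicle, a ratio of 9.14 with an exact interval of 1.58 to 367. Its edgeR unadjusted p was 0.0224 and its adjusted p 0.483. Ctla4 had a log2 fold change of 1.19 ± 0.92 and Pdcd1 0.38 ± 0.66. Of 12 activation genes 8 were tested, 6 higher and 2 lower, with a median of 0.53, or 0.27 with the genes at 0 in vehicle placed at their floor.

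Naive and memory genes leaned the other way. Of 12 genes 8 were tested, 1 higher and 7 lower with TAK-981, with 0 passing and a median log2 fold change of -0.54. The list summed to 1427 and 3044 CPM with TAK-981, against 4635 and 945 CPM with vehicle. Vehicle library 1 was the highest and vehicle library 2 the lowest, so the groups overlapped and, without vehicle library 1, both TAK-981 sums lay above the vehicle sum. Levels of only 1 of the 8 genes, Lef1, did not overlap between the groups. Tcf7 had -1.88 ± 0.92 and Lef1 -1.84 ± 1.02 (SE, edgeR adjusted p = 0.55 and 0.617). S1pr1 had 0 UMIs in 1 library of each group, as the values by library show. Bcl2, a survival gene, was the 1 higher gene (0.25 ± 0.64).

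Interferon and SUMO genes gave no call. Of 39 type I interferon response genes in the files, 6 were tested, 2 higher (Ly6a and Ly6e) and 4 lower, and their log2 fold changes had a median of -0.78. The sums of the whole list were 3539 and 3556 CPM with TAK-981, against 2754 and 2993 CPM with vehicle, the other direction from that median, with 31 and 37 members detected, against 19 and 8. Ly6e, an interferon-induced surface protein, had 36 and 63 UMIs, against 3 and 4, and a log2 fold change of 0.82 ± 0.54 (SE, edgeR adjusted p = 0.677). Ifi27l2a, an interferon-induced mitochondrial protein, had 13 and 31 UMIs with TAK-981, against 7 and 5 with vehicle, and -1.14 ± 0.54 (SE, edgeR adjusted p = 0.537). Isg15 had 1 and 1 UMIs, against 0 and 0, so that its level was under the floor. Of 20 SUMO pathway genes 6 were tested, 3 higher and 3 lower, with a median of 0.36. Sumo2, a SUMO modifier, had 50 and 59 UMIs with TAK-981, against 1 and 3 with vehicle, and 1.81 ± 0.70 (SE, edgeR unadjusted p = 0.0261, adjusted p = 0.483). The subunits of the enzyme that TAK-981 inhibits were too low to test. Uba2 had 2 and 7 UMIs with TAK-981, against 0 and 0 with vehicle, and Sae1 had 1 and 4, against 1 and 2.

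Other lists had 0 called genes too. Of 14 cytotoxic genes 7 were tested, 5 higher and 2 lower, with a median of 0.20. Ctsw, cathepsin W of cytotoxic lymphocytes, had 27 and 25 UMIs, against 1 and 0, a ratio of 7.42 with an exact interval of 1.28 to 299 (edgeR adjusted p = 0.483). Of 26 cell cycle genes 10 were tested, 4 higher and 6 lower, with a median of -0.09. Among the heat shock genes Hsp90ab1, a chaperone, had 1.22 ± 0.52. Of 13 genes of interferon receptors, JAK and STAT 4 were tested, and Stat3 had 30 and 59 UMIs, against 1 and 2, a ratio of 4.24 with an exact interval of 1.40 to 20.9.

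**Figure D4:**
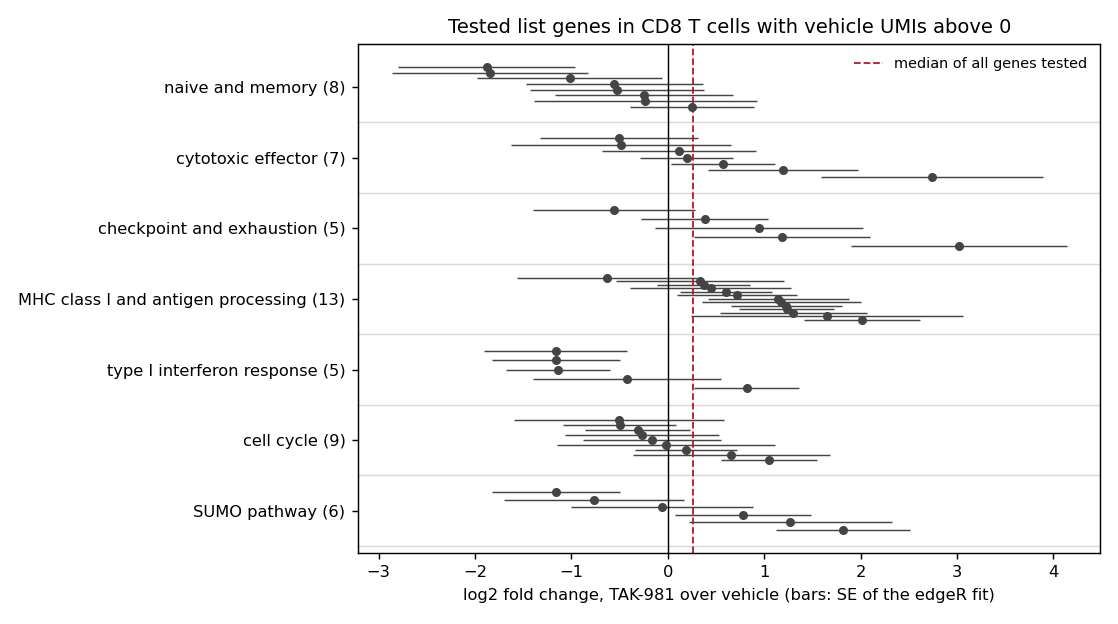
Log2 fold change of TAK-981 over vehicle, with the SE of the edgeR fit, for each tested gene of 7 lists with at least 1 vehicle UMI; numbers in brackets count the genes drawn. The dashed line is the median of all genes tested (0.26); 12 of 13 class I genes lie above 0, 7 of 8 naive and memory genes lie below 0, and no gene passes at an adjusted p of 0.05.

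CD8 T cells were set against CD4 T cells without Foxp3 from the same libraries to find what marked them beyond the co-receptors. The CD4 T cells met the same T cell, C1q and keratin limits with Cd4 present and Cd8a, Cd8b1 and Foxp3 at 0. They numbered 21 and 21 with TAK-981 and 10 and 14 with vehicle. T cells with a Foxp3 UMI numbered 40 in these libraries, and such a cell with no Foxp3 UMI caught could enter the CD4 set. The part of such cells in the differences was not tested. With the library as a block, edgeR called 20 of 1012 genes (1.98%), and 3 of them were the co-receptor genes Cd8a, Cd8b1 and Cd4 that chose the cells. Of the calls, 5 were higher in CD8 T cells (0.494%) and 15 lower (1.48%). In all, 181 of the 1012 genes went the same way in every library (17.9%). Outside the rule, 3 genes were higher (Ly6c2, Klrd1 and Plac8) and 14 lower. DESeq2 called 6 in all, and leaving out vehicle library 2 gave 64. Without TAK-981 library 1 there were 7 calls and without TAK-981 library 2 there were 6. Without T cells of 10 or more Gzma UMIs there were 13.

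Ly6c2 (chromosome 15, 75108158 to 75111970), a surface protein of memory CD8 T cells and monocytes, was higher in CD8 T cells in all 4 libraries. CD8 T cells held 16 and 47 UMIs with TAK-981 and 4 and 1 with vehicle, against 0 and 2, and 0 and 0, in CD4 T cells. The pooled ratio was 37.3 with a 95% exact interval of 9.92 to 314 (edgeR adjusted p = 3.51e-07). Klrd1 (chromosome 6, 129591782 to 129598775), which encodes the killer receptor chain CD94, rose in CD8 T cells, with 27 and 45 UMIs with TAK-981 and 3 and 3 with vehicle, against 12 and 2, and 0 and 7, in CD4 T cells. Its log2 fold change was 2.16 ± 0.47 (SE, edgeR adjusted p = 0.0021). That call was lost without TAK-981 library 1 (2.42, edgeR adjusted p = 0.0886) and without TAK-981 library 2 (1.60, edgeR adjusted p = 0.389).

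Plac8 was called as higher in CD8 T cells (1.91 ± 0.45, edgeR adjusted p = 0.00712) but went that way only in the TAK-981 libraries. It had 26 and 129 UMIs in CD8 T cells against 1 and 33 in CD4 T cells with TAK-981, and 0 and 0 against 3 and 1 with vehicle. Klrk1, which encodes the killer receptor NKG2D and was too low to test, had 18 UMIs, against 1 in CD4 T cells, a ratio of 19.7 with an exact interval of 3.11 to 822. All 18 came from the TAK-981 libraries (9 and 9), and with vehicle CD8 T cells held 0 and 0.

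Genes lower in CD8 T cells were led by Maf, a transcription factor of helper and follicular T cells. CD8 T cells held 0 and 1 UMIs with TAK-981 and 3 and 2 with vehicle, against 85 and 20, and 8 and 27, in CD4 T cells. The log2 fold change was -3.75 ± 0.54 (SE, edgeR adjusted p = 3.51e-07), and Maf was lower in CD8 T cells in all 4 libraries. Tnfrsf4, which encodes the costimulatory receptor OX40, had 8 and 18 UMIs with TAK-981 and 0 and 0 with vehicle in CD8 T cells, against 59 and 49, and 6 and 9, in CD4 T cells, and fell by 2.18 on the log2 scale (SE 0.41, edgeR adjusted p = 0.000162). The calls of Maf and Tnfrsf4 held at every alternative tried, with log2 fold changes between -4.69 and -2.65 for Maf and between -2.53 and -2.08 for Tnfrsf4. Ly6c2 was called wherever it was tested (4.74 to 4.87), but it had too few UMIs to be tested without TAK-981 library 1 or without TAK-981 library 2.

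Cd5, a negative regulator of T cell receptor signals, was lower in CD8 T cells by a log2 fold change of -2.48 ± 0.60 (edgeR adjusted p = 0.00848). Cd2, an adhesion receptor, had -1.78 ± 0.39 (edgeR adjusted p = 0.0021), and without TAK-981 library 2 the call was lost (-1.58, edgeR adjusted p = 0.244). Nr3c1, the glucocorticoid receptor, had -2.06 ± 0.50 (edgeR adjusted p = 0.00848), and Prr13 had -2.10 ± 0.50 (edgeR adjusted p = 0.00712). Each was lower in CD8 T cells in all 4 libraries. With DESeq2, none of Cd5, Cd2, Nr3c1 and Prr13 passed.

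Dusp1, Nrip1, Ly6a and Rgs1 were also lower in CD8 T cells in all 4 libraries, with less stable calls. Their log2 fold changes were -1.58 ± 0.44, -1.46 ± 0.38, -1.44 ± 0.39 and -1.31 ± 0.36 in that order. Without vehicle library 1 none of these 4 passed, with edgeR adjusted p of 0.097, 0.084, 0.158 and 0.084 in the same order. Rgs1, a regulator of chemokine receptor signals, was decided by TAK-981 library 2, without which it stood at -0.48 (edgeR adjusted p = 0.812), and without vehicle library 2 its edgeR adjusted p was 0.0717. Without TAK-981 library 1, Nrip1 had an edgeR adjusted p of 0.0886, and without TAK-981 library 2 it had 0.576. Ifi27l2a was called as well (-1.38 ± 0.34, edgeR adjusted p = 0.00985), although in vehicle library 2 it ran the other way.

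Effector and checkpoint lists did not separate CD8 from CD4 T cells by a call. Of 14 cytotoxic genes 6 were tested, 5 higher and 1 lower in CD8 T cells, with 0 passing. Nkg7 had 0.80 ± 0.28 (SE, edgeR adjusted p = 0.197), with 153 and 128 UMIs with TAK-981 and 14 and 12 with vehicle in CD8 T cells, against 246 and 21, and 2 and 42, in CD4 T cells. Of 15 checkpoint genes 6 were tested, 1 higher and 5 lower, with 0 passing, and Pdcd1 had -0.22 ± 0.34. Ccl4, a chemokine, had 4 and 4, and 2 and 0 UMIs in CD8 T cells, against 361 and 0, and 0 and 2, in CD4 T cells, so that the CD4 T cells of TAK-981 library 1 held almost all of it. Of 28 ribosomal protein genes tested 27 were higher in CD8 T cells, and of 8 tested T cell receptor signalling genes 0 were, with 0 passing in either list.

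**Figure D5:**
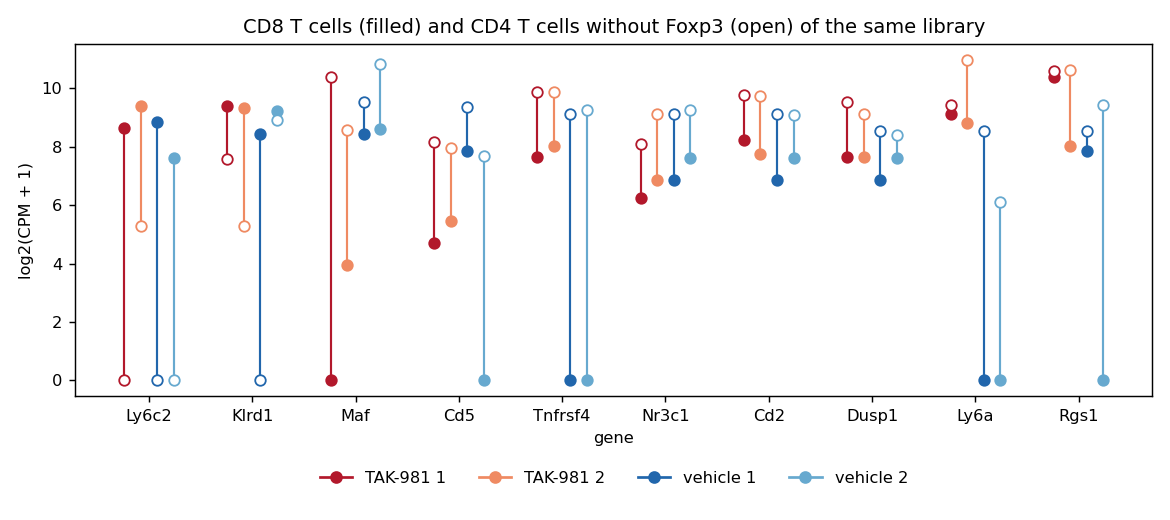
Level of 10 named genes as log2(CPM + 1), with CPM scaled by TMM, in CD8 T cells (filled) and CD4 T cells without Foxp3 (open) of the same library, joined by a line. Ly6c2 and Klrd1 are higher in CD8 T cells in all 4 libraries, and the other 8 are lower in all 4; points at 0 have no UMI.

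Against NK cells only the vehicle libraries could be used. Barcodes with Ncr1 or Klrb1c and no UMI of the 5 T cell genes numbered 2 and 2 with TAK-981 and 24 and 6 with vehicle. In the vehicle libraries edgeR called 48 of 482 genes (9.96%), 4 higher (0.83%) and 44 lower (9.13%) in CD8 T cells, but the lower genes were led by Mgp, Sparc, Col1a2 and Fn1, genes of fibroblasts. Collagen genes had 481 and 397 UMIs in the NK barcodes of these libraries, and 2 of 24 and 3 of 6 barcodes had more than 1 such UMI. With at most 1 collagen UMI per NK barcode, 2 genes were called, Gzma and Cxcl2, both lower in CD8 T cells, and DESeq2 called 3 without that limit. The 4 genes called as higher in CD8 T cells were all genes of the rule.

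Whether TAK-981 shifted CD8 and CD4 T cells differently was tested as an interaction, and 1 of 1695 genes passed (0.059%). That gene was Gzma, with a log2 difference of 13.74 ± 2.31 between the effect in CD8 T cells and that in CD4 T cells (SE, edgeR adjusted p = 5.14e-06). CD8 T cells held 0 and 68 Gzma UMIs with TAK-981 and 0 and 0 with vehicle, and CD4 T cells held 0 and 0 with TAK-981 and 0 and 18 with vehicle. Without the 1 cell that held 63 UMIs no gene passed. No gene passed either with DESeq2, without TAK-981 library 2 or without vehicle library 2, and 53 passed without vehicle library 1. At an unadjusted p under 0.05 the interaction held 64 genes (3.78%).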

How the data were processed

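The authors deposited a filtered matrix of UMI counts for each library, made with Cell Ranger 6.1.2 and the mm10 build per the submitters' processing notes, and no cell annotation was used. Barcodes were filtered and CD8 T cells chosen by the rule given in the opening. The members and gene lists were chosen with earlier results of these data known. No count columns were left unused (0).

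Counts of the chosen cells were summed per library, 1 mouse each, and tested with edgeR 4.0.16 in R 4.3.3 (quasi-likelihood F test, filterByExpr at a minimum count of 5, TMM, Benjamini-Hochberg adjustment over all genes tested, threshold 0.05). Comparisons between cell types used the library as a block. Shares were compared by exact permutation over libraries with scipy 1.17.1. Alternatives were DESeq2 1.42.0, other limits, thinning to 500 or 1000 UMIs (seed 7), Scrublet (scanpy 1.11.5, 0.8% removed per 1000 barcodes) and leaving out each library. The edgeR steps were tested on simulated data.

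Named genes passed the adjusted threshold with libraries that did not overlap, up to 12 per direction (10 between cell types). Where fewer than 5 passed, those of smallest unadjusted p filled up to 5. Members of the gene lists could be named as well. Positions and transcript lengths are from GENCODE vM21 (GRCm38). Replicate numbers were not treated as pairs: the correlation of library 1 minus library 2 between the groups was -0.11 over 1057 genes. Folds against a group at 0 UMIs use a floor of 3 UMIs over that group, and all intervals are 95% and cover counting error only. Genes withheld for evaluation are not reported here and were left out of the gene lists.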

Additional observations from a re-analysis of the deposited data

Results flagged for a closer look

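Gzma was the 1 gene whose TAK-981 effect differed between CD8 and CD4 T cells by the edgeR interaction test, with a log2 difference of 13.74 ± 2.31 (SE, edgeR adjusted p = 5.14e-06). CD8 T cells held 0 and 68 Gzma UMIs with TAK-981 and 0 and 0 with vehicle, and CD4 T cells held 0 and 0 with TAK-981 and 0 and 18 with vehicle. A single CD8 T cell held 63 of the 68 UMIs, and without it the gene was not called. Since the CD8 sum with vehicle and the CD4 sum with TAK-981 were both at 0, the size of 13.74 depends on the prior count and is no bound.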

How the results depend on the processing

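Both CD8 shares kept their direction at every alternative in their means. At 500 UMIs, however, the share among T cells differed by only 0.678 percentage points, and the libraries of the groups overlapped. Leaving out a library gave differences of 0.365 to 0.554 percentage points of passing barcodes and 8.15 to 11.6 of T cells. The replicate block left the first at 0.459 (exact permutation p = 0.5, the smallest 2 pairs allow). For TAK-981 against vehicle, edgeR called 0 genes. It called 1 at a mitochondrial limit of 10%, 1 with DESeq2 size factors, 6 with no filter, 4 without ribosomal protein and mitochondrial genes, 8 of 151 after thinning and 0 to 6 with a library left out. The replicate block gave 2. Chosen after seeing the data, leaving out short transcripts gave 5 and the crossed replicate block 11. DESeq2 called 8. Against CD4 T cells the 20 calls became 6 with DESeq2, 6 to 64 with a library left out and, added after seeing the data, 13 without Gzma-rich cells. Against NK barcodes the 48 calls became 3 with DESeq2 and 2 with the collagen limit, also added afterwards. Leaving out a vehicle library there left 1 library and was not run. The 1 interaction call became 0 with DESeq2, 0 without Gzma-rich cells and 0 to 53 with a library left out. The 129 detection shares that did not overlap became 48 after thinning and 159 to 194 with a library left out. The cause of these moves was not tested. The median log2 fold change of all genes was 0.26, and 0.79 without vehicle library 1. Of the named genes' values under alternatives, 467 kept their side of the threshold, 44 lost it, 27 gained it and 0 changed sign. Of the 467, 144 were for TAK-981 against vehicle, where the named genes did not pass to begin with. Apart from the interaction, named genes were chosen for the same direction in every library, so changes of sign were unlikely by that choice. Alternatives in which a gene was not tested are not counted. The vehicle sums of 14886 and 6349 UMIs limit every comparison with vehicle.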
